A study of Mus musculus with 72 samples.

Results

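The patatin-like phospholipases are hydrolases of lipid esters that share a catalytic fold with patatin, a storage protein of the potato. Members were taken by gene symbol. Of 22823 genes in the liver count table, 6 belonged to the set: Pnpla2, Pnpla3, Pnpla5, Pnpla6, Pnpla7 and Pnpla8. Of 15759 genes in the count table of the suprachiasmatic nucleus (SCN), the brain's master clock in the hypothalamus, 4 belonged to it: Pnpla2, Pnpla6, Pnpla7 and Pnpla8. No other row of either table had a symbol beginning with Pnpla. All members in a table passed the filter on low counts, Pnpla5 in liver through its control libraries alone.

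RNA sequencing was done on both tissues of C57BL/6 mice aged 8 to 12 weeks. The mice ate freely for 11 days, either a diet lacking methionine and choline (MCD) or an isocaloric control diet, and the labels name no genetic change in any group. They were held for 10 days in cycles of 12 h light and 12 h dark and then in constant darkness, and were killed every 4 h at circadian times from CT00 through CT20. The design had 24 groups (tissue by diet by time) of 3 libraries, of which replicates 1 and 2 were labelled male and replicate 3 female, although the protocol text speaks of male mice. In both count tables the 2 male columns of control CT08 carried the same name, so they are called control CT08 a and b here. No label ties liver and SCN libraries to the same mouse or says that replicates were housed apart, so p-values measure the spread between these libraries.

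The members divide into 3 kinds by what they act on. Pnpla2 (adipose triglyceride lipase, ATGL) starts the breakdown of stored triglyceride at the lipid droplet, with Abhd5 as its activator and G0s2 as its inhibitor. Pnpla3 (adiponutrin) sits on hepatocyte lipid droplets and is a known target of the insulin-driven lipogenic factor SREBP-1c, and Pnpla5 is its close relative, also a droplet lipase. Pnpla6 (neuropathy target esterase) and Pnpla7 remove fatty acids from phosphatidylcholine or lysophosphatidylcholine and release glycerophosphocholine, a source of recovered choline. Pnpla8 (iPLA2 gamma) is a phospholipase of mitochondrial and peroxisomal membranes.

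In the GENCODE M21 annotation (build GRCm38, not the GRCm39 build of the count tables), the members lay on 5 chromosomes. Pnpla5 (chr15:84112356-84123175, minus strand) and Pnpla3 (chr15:84167837-84187236, plus strand) were neighbours whose start sites faced each other across 44661 bases, with the lincRNA gene Gm33432 between them. Pnpla2 lay at chr7:141455198-141460743, Pnpla6 at chr8:3515384-3544267, Pnpla7 at chr2:24976033-25054057 and Pnpla8 at chr12:44221370-44322532, all on the plus strand. Exons of Pnpla3 overlapped those of Gm49513 on the same strand, and exons of Pnpla8 overlapped those of the lincRNA gene Gm47096 on the opposite strand. Counts of these pairs could be shared, since how reads were assigned to genes is not stated in the labels or file headers.

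The 250 bases before the annotated start of the members with the largest fall on MCD (Pnpla3, Pnpla5) and of Pnpla7, whose diet change differed between the sexes, are printed from RefSeq (GRCm38.p6), 5′ to 3′ on the gene's strand. Capitals mark an E-box, CACGTG, the hexamer bound by the clock factors CLOCK and BMAL1 and by other factors. The RefSeq table matched all 6 members.
Pnpla3 (chr15:84167566-84167815, plus strand): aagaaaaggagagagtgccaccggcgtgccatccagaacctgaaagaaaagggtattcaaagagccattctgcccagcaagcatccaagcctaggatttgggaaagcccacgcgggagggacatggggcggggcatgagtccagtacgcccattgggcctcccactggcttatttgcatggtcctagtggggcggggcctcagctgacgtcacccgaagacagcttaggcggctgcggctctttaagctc
Pnpla5 (chr15:84123176-84123425, minus strand): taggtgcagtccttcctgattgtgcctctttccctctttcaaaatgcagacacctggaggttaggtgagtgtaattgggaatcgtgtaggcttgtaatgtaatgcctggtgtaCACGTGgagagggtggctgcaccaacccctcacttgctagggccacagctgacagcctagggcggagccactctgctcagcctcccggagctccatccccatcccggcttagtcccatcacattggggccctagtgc
Pnpla7 (chr2:24975783-24976032, plus strand): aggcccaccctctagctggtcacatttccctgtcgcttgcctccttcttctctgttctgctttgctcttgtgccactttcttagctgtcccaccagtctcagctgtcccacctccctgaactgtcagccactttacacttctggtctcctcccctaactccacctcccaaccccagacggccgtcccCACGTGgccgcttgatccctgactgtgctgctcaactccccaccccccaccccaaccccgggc
The E-box was found once in the window of Pnpla5, 137 bases before the start, and once in that of Pnpla7, 63 bases before it. It reads the same on both strands, and 6.02% of the 32851 windows of that length in the table held it. The sterol response element core TCACNCCAC (1.05% of windows) and the D-box TTANGTAA (2.06%), searched on both strands, were in no member's window. An absent match says only that these letters were not in these windows.

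Total counts per library, in megacounts (M), ran from 52.6 M to 86.7 M in liver (median 64.4 M) and from 23.3 M to 79.8 M in SCN (median 57 M). Hepatocyte markers summed to between 54560 and 117700 CPM (read counts scaled to library size) in the liver libraries and those of them in the SCN table to at most 27.3 CPM there, where SCN neuron markers summed to between 1630 and 4212 CPM. Liver libraries fell into 2 kinds by the mitochondrial transcript mt-Nd6: 21 held 41.6 to 118.9 CPM of it and 15 held 414.1 to 924.6 CPM. The high kind made up 10 of 18 control and 5 of 18 MCD libraries, and member values by kind are given below. The library control CT08 a had the lowest Pnpla3 and Pnpla5 of all control livers, and the ranges and pooled folds of these genes that rest on it are also given without it. It was the deepest control liver library (86.2 M), and its TMM factor, a correction of library size for RNA makeup, was 1.178, where the other 17 control livers had 0.8414 to 0.9859 and the MCD livers 0.986 to 1.28.

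The MCD diet changed 5 of the 6 members in liver, in an edgeR quasi-likelihood test of the mean over the 6 times with Benjamini-Hochberg adjustment over all genes. Pnpla3 and Pnpla5, the lipogenic droplet pair, were nearly lost. Pnpla2, the triglyceride lipase, rose, and Pnpla6 and Pnpla7, the phosphatidylcholine and lysophosphatidylcholine hydrolases, fell by a small amount. Pnpla8 was not called. Across all 20249 genes tested, 46.6% were called in either direction, 25.3% higher and 21.2% lower, so a call alone does not set the members apart. In bulk liver, fewer cells of a type and less RNA per cell cannot be told apart.

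**Figure D1:**
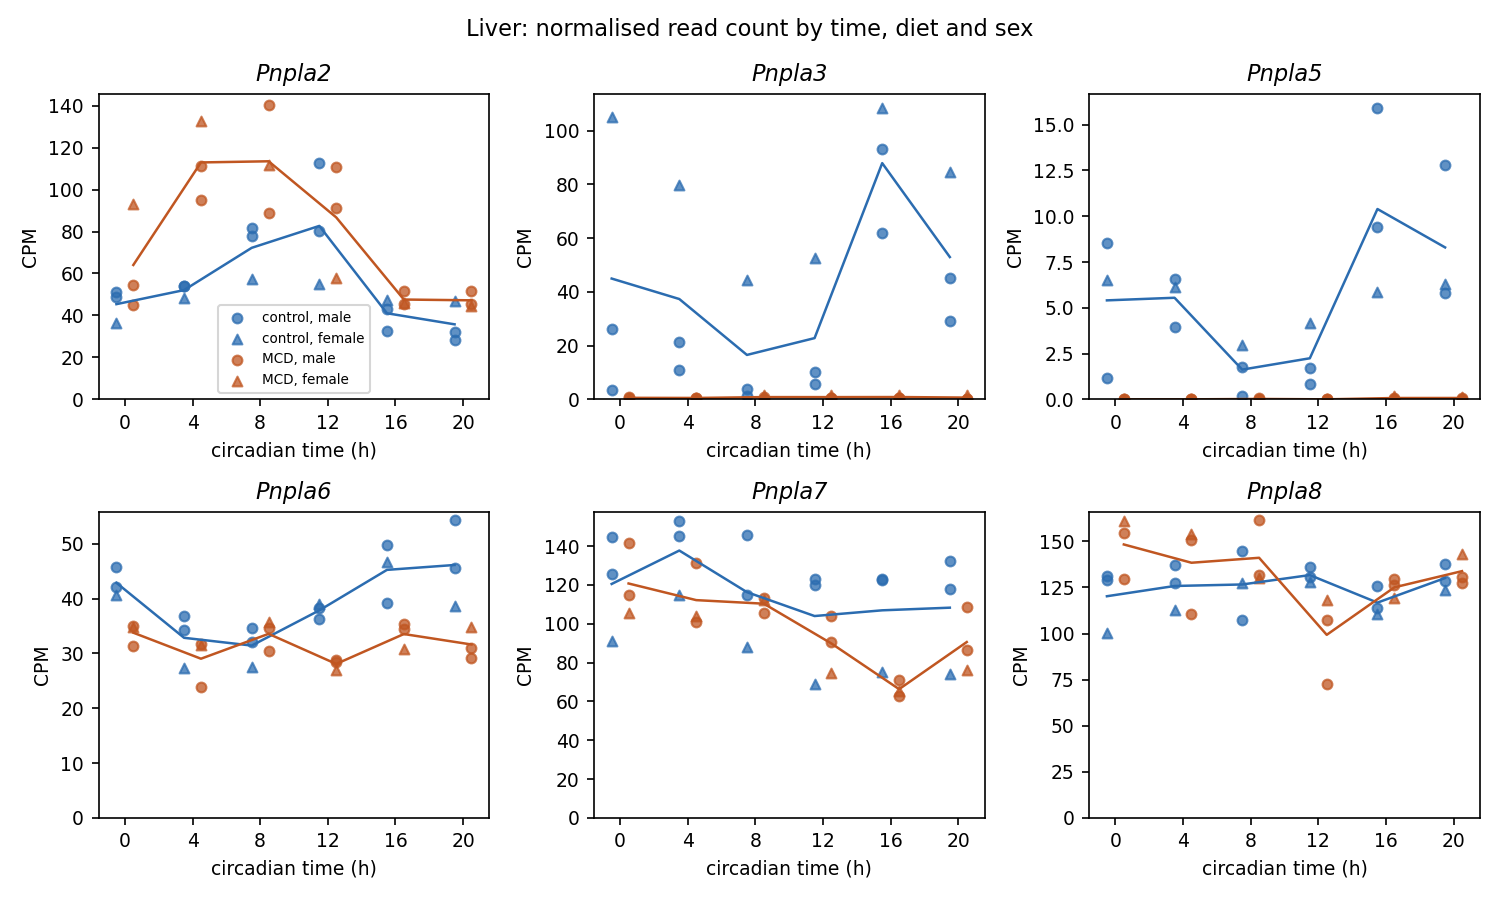
Normalised read count (CPM) of the 6 members in 36 liver libraries against circadian time in hours. Points are single libraries (circles male, triangles female), lines join the means of 3 libraries, and colours give the diet. Pnpla3 and Pnpla5 lie near 0 on MCD at every time, while Pnpla8 overlaps between the diets at each time but CT12.

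Pnpla3 had 43.75 ± 37.1 CPM on control and 0.7051 ± 0.483 CPM on MCD (SD, n = 18 each). Control libraries ran from 1.419 to 108.4 CPM with a median of 36.68, and MCD libraries from 0.1482 to 1.577 CPM with a median of 0.4817. The ranges met only through control CT08 a: without it the lowest control library had 3.636 CPM. The log2 change was -5.53 ± 0.36 (SE; adjusted p = 1.97e-11, edgeR), and pooled counts were 59.7-fold lower (65.9-fold without control CT08 a). Within the low and the high mt-Nd6 kind, fitted apart, it was -5.60 (adjusted p = 1.23e-05) and -4.86 (adjusted p = 0.000924).

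Control levels of Pnpla3 moved with time and sex. At CT16 the libraries had 93.3, 62.0 and 108.4 CPM, and at CT08 they had 1.42, 3.82 and 44.3 CPM, in each case with the female last. The female was the highest of the 3 control libraries at every time, and the lowest female, at 44.35 CPM, lay below only the CT16 males and the CT20 male at 45.1 CPM. The pooled level was 101-fold lower on MCD at CT16 (167-fold without MCD CT16 replicate 3). At CT12 it was 29.9-fold lower, 10.3-fold without control CT12 replicate 3 and 49.5-fold without MCD CT12 replicate 3. At CT08 it was 16.7-fold lower and rested on single libraries: 30.5-fold without control CT08 a, 31-fold without MCD CT08 replicate 3 and 2.44-fold without control CT08 replicate 3, which held 2846 of the 3169 control counts. At CT00 and CT04 it was 89.6-fold and 77.1-fold lower, or 28.5-fold and 31.6-fold without the control female of that time, and at CT20 74.0-fold, or 277-fold without the MCD female. The fitted log2 change at CT08, -3.69, was -2.40 without control CT08 replicate 3, the female (adjusted p = 0.205, edgeR).

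Pnpla5 had 5.585 ± 4.18 CPM on control, from 0.1577 (control CT08 a) to 15.91, with a median of 5.83 (n = 18). On MCD, 13 of 18 libraries had no count in the gene table, and the other 5 held 3, 4, 5, 11 and 12 counts, the highest at 0.1663 CPM. Leaving out control CT08 a, with 16 counts, the lowest control library had 0.8504 CPM, above every MCD library. Pooled over time, 5521 counts on control faced 35 on MCD, a 197-fold lower level (adjusted p = 8.33e-10, edgeR), or 218-fold without control CT08 a. Within the low and the high mt-Nd6 kind control libraries held 4.87 and 6.156 CPM and MCD libraries 0.03245 and 0.01563 CPM (adjusted p = 1.09e-05 and 7.93e-05, edgeR). At CT00, CT04 and CT12 no MCD library had a count in that table, and against 3 counts over the group the level was at least 386-fold, 491-fold and 171-fold lower. With 1 library of the time left out, the lowest of these bounds were 236-fold, 321-fold and 97.3-fold. The exon-bin files, counted separately, held 42 Pnpla5 counts on MCD with 8 of 18 libraries at 0, among them 1 or 2 counts in 3 libraries of CT00 and CT04. Where MCD libraries had counts in the gene table the fold was 75.6 (CT08), 133 (CT16) and 105 (CT20). At CT08 it was 137 without control CT08 a, 36.8 without control CT08 replicate 3 and 45 without MCD CT08 replicate 3, and MCD CT08 replicate 1 held all 4 MCD counts. The MCD female held 12 of the 15 MCD counts at CT16 and 11 of the 16 at CT20, and without her library the fold was 420 (95% exact counting interval 143 to 2040) and 208 (89 to 642).

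Pnpla2 rose on MCD from 54.87 ± 21.2 to 78.68 ± 33.2 CPM (SD, n = 18 each). The groups overlapped: control ran from 28.29 to 112.6 CPM with a median of 49.97, and MCD from 44.61 to 140.2 CPM with a median of 73.35. The log2 change was 0.49 ± 0.11 (SE; adjusted p = 0.000568, edgeR). Within the low mt-Nd6 kind it was 0.30 (adjusted p = 0.128) and within the high kind 0.52 (adjusted p = 0.0246), and with the kind as a term 0.41 (adjusted p = 0.00149).

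The rise of Pnpla2 was called at CT04 alone, where control libraries had 54.2, 53.8 and 48.2 CPM and MCD libraries 94.9, 111.0 and 132.9 CPM. There the log2 change was 1.12 ± 0.27 (SE; adjusted p = 0.00536, edgeR) with no overlap. At CT12 the diets held 112.6, 80.4 and 55.1 against 110.9, 91.5 and 57.9 CPM, a log2 change of 0.07 ± 0.27. The CT04 call was lost without replicate 1 (adjusted p = 0.0591) or without replicate 2 (adjusted p = 0.0829), fits with at most 2 libraries in most groups. Whether the change differed between times was not tested.

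Pnpla6 fell from 39.41 ± 7.18 to 31.61 ± 3.33 CPM (SD, n = 18 each), with ranges of 27.35 to 54.29 and 23.84 to 35.75 CPM that overlapped. Its log2 change was -0.30 ± 0.05 (SE; adjusted p = 2.31e-05, edgeR). Within the low mt-Nd6 kind it went from 37.92 to 32.86 CPM (log2 change -0.21, adjusted p = 0.029, edgeR) and within the high kind from 40.59 to 28.35 CPM (-0.52, adjusted p = 0.00422). By time the change was called at CT12 (-0.43), CT16 (-0.43) and CT20 (-0.54), and at CT08 it was 0.10 ± 0.12. At CT20 control libraries held 45.5, 54.3 and 38.6 CPM and MCD libraries 29.1, 31.1 and 34.7 CPM, apart from each other. The calls at CT12 and CT16 were each lost on leaving out any of 4 single libraries of that time (adjusted p from 0.0506 to 0.0762 and from 0.0528 to 0.121), and that at CT20 on leaving out control CT20 replicate 2 (adjusted p = 0.0615). Leaving out a replicate number (control CT08 a and b, which have none, stayed in), CT12 was lost without any of the 3 (adjusted p = 0.124, 0.208 and 0.0835 without replicate 1, 2 and 3). CT16 was lost likewise (0.216, 0.0798 and 0.132), and CT20 without replicate 1 (0.164) or 2 (0.218). With library totals none of the 3 was called: CT12 -0.06 (adjusted p = 0.765), CT16 -0.16 (0.455) and CT20 -0.29 (0.149).

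Pnpla7 fell from 115.6 ± 25.9 to 98.3 ± 22.1 CPM (SD, n = 18 each), a log2 change of -0.23 ± 0.06 (SE; adjusted p = 0.00426, edgeR), with ranges of 69.05 to 153 and 62.56 to 141.8 CPM. By time it was called only at CT16, where control held 122.4, 123.1 and 75.2 CPM and MCD 70.9, 62.6 and 65.4 CPM (log2 change -0.65 ± 0.16; adjusted p = 0.00732). The groups did not overlap there, and the female control library lay nearest to MCD. That call was lost without replicate 1 (adjusted p = 0.157), without replicate 2 (0.202) and with library totals (-0.37, 0.104). Within the low and the high mt-Nd6 kind the mean change was -0.25 in both, with adjusted p = 0.0548 and 0.0649. The call was also lost without the libraries numbered replicate 1 (-0.18, adjusted p = 0.114) or replicate 2 (-0.15, adjusted p = 0.193). Without replicate 3, which leaves males alone, the change was -0.39 (adjusted p = 0.000283).

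Pnpla8 held 125.2 ± 11.7 CPM on control and 131 ± 22 CPM on MCD (SD, n = 18 each), a log2 change of 0.06 ± 0.06 (SE; adjusted p = 0.489). Within the low and the high mt-Nd6 kind it was 0.03 and -0.03 (adjusted p = 0.851 and 0.806, edgeR). Its widest difference by time was at CT12, where control had 136.1, 130.8 and 128.2 CPM and MCD 107.3, 72.4 and 118.2 CPM. That difference, -0.41 ± 0.15, did not pass in edgeR (adjusted p = 0.0649) and passed in DESeq2 (adjusted p = 0.0346). Its level on MCD spread more at CT12 than on control, with replicate 2 the lowest of all 36 liver libraries.

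The small changes of Pnpla6, Pnpla7 and Pnpla8 rest on how libraries are scaled. Scaling by TMM put the median log2 change of all genes at 0.02, and scaling by library totals put it at 0.27. With library totals Pnpla6 was at -0.05 (adjusted p = 0.461), Pnpla7 turned to 0.03 (adjusted p = 0.722) and Pnpla8 was called higher at 0.31 (adjusted p = 2.1e-06). Both Pnpla6 and Pnpla7 then lay below that median. Pnpla2, Pnpla3 and Pnpla5 kept their direction and call under both scalings.

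The number of members called by single time was 2 for CT00 (12.6% of all genes), 3 for CT04 (18.2%), 2 for CT08 (1.3%), 3 for CT12 (15.2%), 4 for CT16 (12.5%) and 3 for CT20 (11.3%). Pnpla3 and Pnpla5 were called lower at each of the 6 times. The calls at some times depended on the tool and the libraries. limma-voom did not call Pnpla5 at CT00 (adjusted p = 0.0898), CT04 (0.0532) or CT12 (0.121). Without replicate 1 both were lost at CT00 (0.103 for Pnpla3, 0.0801 for Pnpla5) and CT12 (0.0878 and 0.0692), and without replicate 2 both at CT12 (0.0577 and 0.0742). Pnpla5 was also lost at CT16 without replicate 1 (0.0558) and at CT20 without replicate 2 (0.06). For CT08 limma-voom gave adjusted p = 0.161 for Pnpla3 and 0.428 for Pnpla5, and both were lost on leaving out control CT08 b, control CT08 replicate 3, MCD CT08 replicate 2 or MCD CT08 replicate 3, with adjusted p from 0.077 to 0.205 for Pnpla3 and from 0.0823 to 0.156 for Pnpla5. Both were also lost at CT08 without any one replicate number, although control CT08 a and b stayed in. The adjusted p ran from 0.217 to 0.308 for Pnpla3 and from 0.165 to 0.308 for Pnpla5 (edgeR).

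A 24 h rhythm on the control diet was called in liver for 4 of 6 members, against 17.8% of all genes. The fitted peak-to-trough range on the log2 scale and the peak time describe each curve. Pnpla2 peaked at 9.05 h with a range of 1.12 (adjusted p = 0.00256, edgeR). The others peaked in the night that followed: Pnpla6 at 18.9 h (range 0.61, adjusted p = 0.000503), Pnpla3 at 19.3 h (range 2.61, adjusted p = 0.00956) and Pnpla5 at 20.3 h (range 2.53, adjusted p = 0.0497). Without replicate 1 the calls of Pnpla2 (adjusted p = 0.139) and Pnpla3 (0.258) were lost, and without replicate 2 likewise (0.0878 and 0.0646). The triglyceride lipase was highest late in the subjective day, and the other 3 were highest in the subjective night.

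The rhythm of Pnpla5 lay at the threshold and was lost in DESeq2 (adjusted p = 0.103), without the filter on low counts (0.0535), without control CT08 a (0.0994) and on leaving out many other single libraries. The standard error of the peak time, from a cosine fit to log2 CPM, was 0.789 h for Pnpla2, 0.606 h for Pnpla6, 1.12 h for Pnpla3 and 1.29 h for Pnpla5. Pnpla7 (range 0.37, adjusted p = 0.0962) and Pnpla8 (range 0.06, adjusted p = 0.949) were not called on control in edgeR, and with library totals Pnpla7 was (range 0.48, adjusted p = 0.0313).

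On MCD 3 of 6 members were called rhythmic, against 28.2% of all genes. Pnpla2 kept a rhythm with a range of 1.48 and a peak at 6.76 h (adjusted p = 6.82e-05, edgeR), Pnpla7 had a range of 0.75 with a peak at 3.64 h (0.000286) and Pnpla8 a range of 0.43 with a peak at 1.16 h (0.0272). Pnpla3, Pnpla5 and Pnpla6 were not called there in edgeR, with adjusted p = 0.896, 0.19 and 0.718, and DESeq2 called Pnpla5 (adjusted p = 0.0327). The Pnpla8 call was lost on leaving out any of 6 single MCD libraries, MCD CT12 replicate 2 giving the highest adjusted p of these, 0.0879. It was also lost without replicate 1 (adjusted p = 0.0618), replicate 2 (range 0.29, adjusted p = 0.37) or replicate 3 (0.152).

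A call on one diet alone does not show that the rhythm differed. The test of that difference called 0 of 6 members in edgeR (4.87% of all genes), 4 of 6 had an unadjusted p under 0.05 and limma-voom called 0. The lowest adjusted p was that of Pnpla6, 0.0725, whose range was 0.61 on control and 0.11 on MCD. DESeq2 called 2 members, Pnpla3 (adjusted p = 0.0338) and Pnpla6 (adjusted p = 0.0199).

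Sex set apart Pnpla3 and Pnpla7 in liver, 2 of 6 members against 9.44% of all genes. Pnpla3 was higher in females by 1.93 ± 0.33 on the log2 scale (SE; adjusted p = 0.000286, edgeR): 79.13 ± 26.4 against 26.06 ± 28.1 CPM on control and 1.152 ± 0.581 against 0.4819 ± 0.209 CPM on MCD (SD, n = 6 females and 12 males). On MCD the females were high from CT08 on, at 1.499, 1.545, 1.482 and 1.577 CPM, and low at CT00 and CT04, at 0.393 and 0.413 CPM. Pnpla7 was lower in females by 0.40 ± 0.07 (log2 change -0.40; adjusted p = 0.000206). Pnpla5, beside Pnpla3 on the chromosome, was not called (0.62 ± 0.48, adjusted p = 0.531).

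The diet change differed between the sexes for 1 of 6 members, Pnpla7, against 1.77% of all genes. Males had 130.6 ± 13 CPM on control and 102.6 ± 22.7 CPM on MCD (SD, n = 12), and females 85.48 ± 16.8 and 89.75 ± 19.8 CPM (n = 6). Control males ran from 114.9 to 153 CPM and control females from 69.05 to 115 CPM, so the sexes touched at their edges, while on MCD they overlapped widely. The difference of the changes was 0.44 ± 0.11 on the log2 scale (SE; adjusted p = 0.0293, edgeR). It was lost with library totals (adjusted p = 0.0586) and without any one of 6 female libraries, those of control CT12, CT16 and CT20 and of MCD CT04, CT08 and CT16 (adjusted p from 0.0557 to 0.0755). It was also lost without the libraries numbered replicate 1 (0.47, adjusted p = 0.107) or replicate 2 (0.42, adjusted p = 0.369). Within the low and the high mt-Nd6 kind it was 0.32 (adjusted p = 0.804) and 0.45 (adjusted p = 0.599).

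Among the 18 control livers, Pnpla3 and Pnpla5 varied together. Pearson's r of log2 CPM was 0.854 (permutation p = 2e-05, adjusted p = 3e-04 over 15 pairs of members) and Spearman's rho 0.703 (permutation p = 0.0015, adjusted p = 0.00979). It was 0.948 in the 12 males, 0.919 in the 6 females and 0.745 without the 2 libraries farthest from the median of Pnpla3.

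**Figure D2:**
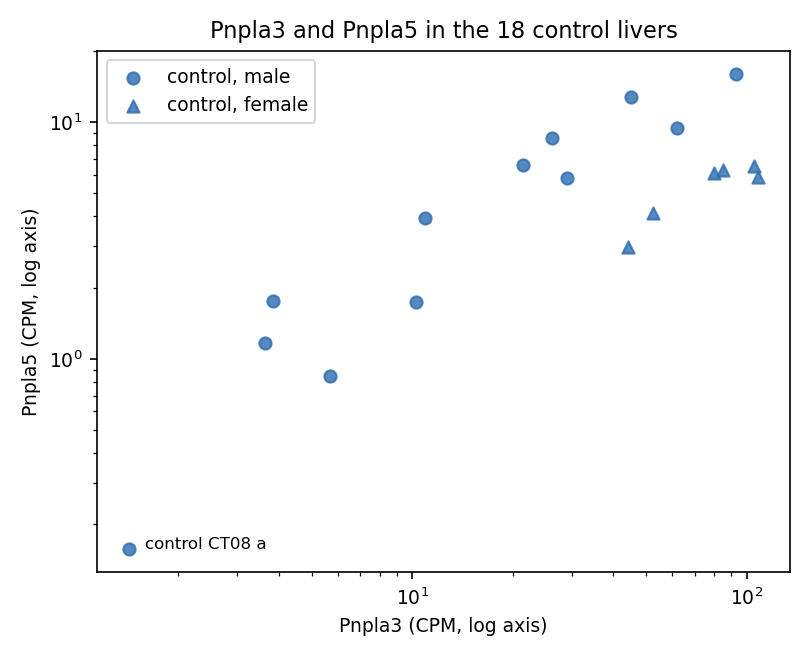
Pnpla5 against Pnpla3 in the 18 control liver libraries, both in CPM on log axes, circles male and triangles female. The library control CT08 a lies at the lower left with 1.42 CPM of Pnpla3 and 0.158 CPM of Pnpla5.

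Pnpla2 ran opposite to both. Its r was -0.742 with Pnpla5 (permutation p = 0.00036, adjusted p = 0.0027; rho -0.781, permutation p = 0.00028, adjusted p = 0.0042) and -0.657 with Pnpla3 (permutation p = 0.0032, adjusted p = 0.016; rho -0.684, permutation p = 0.0021, adjusted p = 0.00979). Without the 2 libraries farthest from the median of Pnpla2 these were -0.838 and -0.761, in males -0.737 and -0.727 and in females -0.781 and -0.823. With Pnpla6 the rho was -0.676 (permutation p = 0.00261, adjusted p = 0.00979) and r -0.549 (permutation p = 0.0178, adjusted p = 0.0668). Pnpla3 and Pnpla8 had a rho of -0.589 (permutation p = 0.0118, adjusted p = 0.0354), with r -0.363 (permutation p = 0.14, adjusted p = 0.277) and -0.758 without the 2 libraries farthest from the median. That r was 0.0136 in the 12 males and -0.824 in the 6 females. Libraries of one time share their phase, so these values hold the rhythms described above.

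Over all 36 liver libraries, the genes most like each member by Pearson's r of log2 CPM were ranked among the 13618 genes with a mean log2 CPM of at least 0. These correlations describe both diets and all times together and have no test. Pnpla2 was most like Cpt1a, the carrier step of mitochondrial fatty acid oxidation (r = 0.911), Adcy6 (0.904) and Nceh1 (0.899). Pnpla3 was most like Chrna4 (0.947), Acsl5 (0.943) and the desaturase gene Scd1 (0.922), and Pnpla5 like Chrna4 (0.96), Scd1 (0.95) and Pnpla3 (0.946). Pnpla5, with a mean log2 CPM of -1.28, was not itself ranked; its r of 0.946 with Pnpla3 lay between those of Chrna4 and Acsl5. Pnpla6 was most like Gfm2 (0.84), Gm32281 (0.807) and Mrpl4 (0.791), Pnpla7 like Pja1 (0.876), Adh4 (0.832) and Aox3 (0.83), and Pnpla8 like Vps13d (0.824), Sec62 (0.776) and Cul3 (0.769).

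Most lipogenic genes, which include SREBP-1c targets, fell, as Pnpla3 and Pnpla5 did. Of 19 genes tested, 16 fell on MCD and none rose, with a median log2 change of -1.14 beside 0.0167 over all genes. The largest falls were of Scd1 (-4.22 ± 0.27, from 16130 to 791.8 CPM), Thrsp (-2.18 ± 0.38), Elovl6 (-2.11 ± 0.26) and Acly (-2.10 ± 0.25), each with an SE. Nr1h3, Dgat1 and Lpin1 were not called.

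The partners of the droplet lipases were mixed: 7 of 19 rose and 6 fell, with a median of -0.00936. Over all genes 25.3% were called higher and 21.2% lower, so calls in both directions in this list and those that follow do not set them apart. Cidec (3.85 ± 0.42), which enlarges lipid droplets, Plin4 (2.00 ± 0.24), a droplet coat protein, and G0s2 (1.59 ± 0.28), the inhibitor of ATGL, rose the most, and the carboxylesterase Ces1f (-1.11 ± 0.17) fell the most. G0s2 went from 58.38 to 175.1 CPM and Abhd5, the activator of ATGL, from 33.88 to 27.87 CPM (log2 change -0.27 ± 0.06, adjusted p = 0.000835).

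Choline recovery genes were called in both directions at shares near those of all genes, 3 of 17 higher and 4 lower, with a median of 0.00911. The largest changes were of the glycerophosphocholine phosphodiesterase Gpcpd1 (-0.92 ± 0.24), Gdpd1 (0.73 ± 0.21), the choline transporter Slc44a1 (-0.66 ± 0.06) and Gde1 (0.35 ± 0.06). Of 14 PPAR alpha and FOXO1 targets, 5 rose and 2 fell (median 0.21), among them Cyp4a14 (3.02 ± 0.38), Pdk4 (1.17 ± 0.28), G6pc (-1.03 ± 0.21) and Angptl4 (0.86 ± 0.20). Of 8 cardiolipin and mitochondrial membrane genes, 3 rose and 2 fell (median 0.0935), among them Hsd17b10 (-0.67 ± 0.09), Pla2g6 (0.46 ± 0.08), Lclat1 (0.34 ± 0.05) and Crls1 (0.27 ± 0.07).

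**Figure D3:**
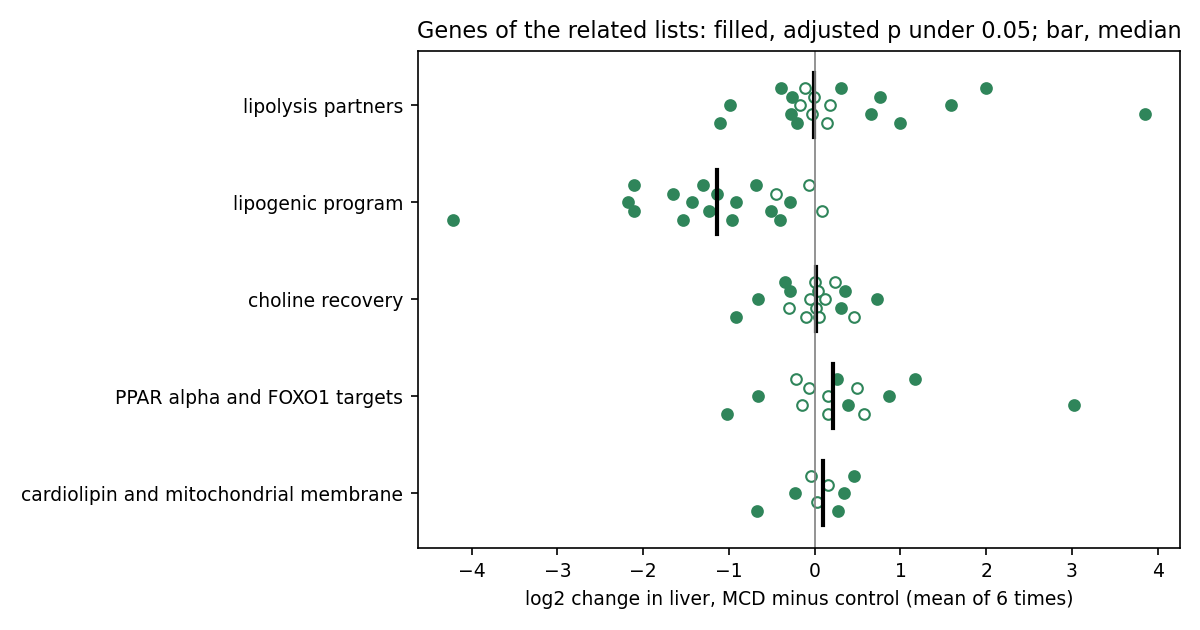
Log2 change in liver (MCD minus control, mean of 6 times) of each tested gene in 5 lists related to the family. Filled points have an adjusted p under 0.05, and black bars are list medians. The lipogenic genes lie to the left with a median of -1.14, and the other medians lie between -0.00936 and 0.21.

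Markers of liver cell types were counted as well, beside 25.3% of all genes called higher and 21.2% called lower. All 5 macrophage markers tested were higher on MCD (summed level 178.3 to 379.1 CPM on control, 224.8 to 426.4 on MCD), 2 of 4 stellate cell markers were higher (171.3 to 437.5 and 213 to 609.3 CPM), and 4 of 5 hepatocyte markers were lower (77010 to 117100 and 54560 to 117700 CPM). Alb was the largest part of the hepatocyte sum (mean 73120 CPM on control and 79900 on MCD) and was not called. Of the endothelial markers 2 of 4 were higher and 1 lower, and of the cholangiocyte markers 1 of 4 was higher. Of 5 adipocyte markers only Lipe was tested (-0.12 ± 0.11, adjusted p = 0.398), the other 4 not being rows of the table used. The part of these cells in the member changes was not tested.

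Exon-bin counts, available for 34 liver libraries, showed where along each gene the level differed. Of the 5 members with enough bin counts, 0 had a bin that changed apart from its gene in edgeR's diffSpliceDGE with Simes p-values (3.45% of 11694 genes did). No member had an unadjusted Simes p under 0.05. The gene-level F test called 0, its lowest p being that of Pnpla7 (unadjusted p = 0.00315, adjusted p = 0.0537). In edgeR's test of single bins, 006 and 018 of Pnpla7 had unadjusted p = 0.0368 and 0.0334. Bin 027 of Pnpla8 had unadjusted p = 0.023, and none of these passed adjustment over the bins of its gene (edgeR). All 8 tested bins of Pnpla3 held less on MCD, from 7.27 to 0.127 CPM in bin 002 and from 2.67 to 0.0615 in bin 008. The bin changes departed from that of the gene by -0.53 to 0.23 on the log2 scale.

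In the SCN the diet called 0 of the 4 members in edgeR, where 0.0635% of all genes were called, and limma-voom and DESeq2 called 0 too. An unadjusted p under 0.05 was found for 2 of them. Pnpla7 had 22.43 ± 3.55 CPM on control (14.94 to 27.19) and 25.53 ± 2.54 CPM on MCD (19.87 to 30.24), a log2 difference of 0.19 ± 0.06 (SE; unadjusted p = 0.00437, adjusted p = 0.499, edgeR). Pnpla8 had 140.7 ± 15.5 and 148.8 ± 16.2 CPM, a difference of 0.08 ± 0.03 (unadjusted p = 0.0252, adjusted p = 0.907). Pnpla2 (31.87 ± 3.57 and 32.81 ± 4.58 CPM) and Pnpla6 (39.43 ± 6.34 and 38.63 ± 4.35 CPM) differed by 0.04 ± 0.05 and -0.03 ± 0.06. Ranges overlapped for all 4 (n = 18 libraries per diet, SD after CPM values).

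**Figure D4:**
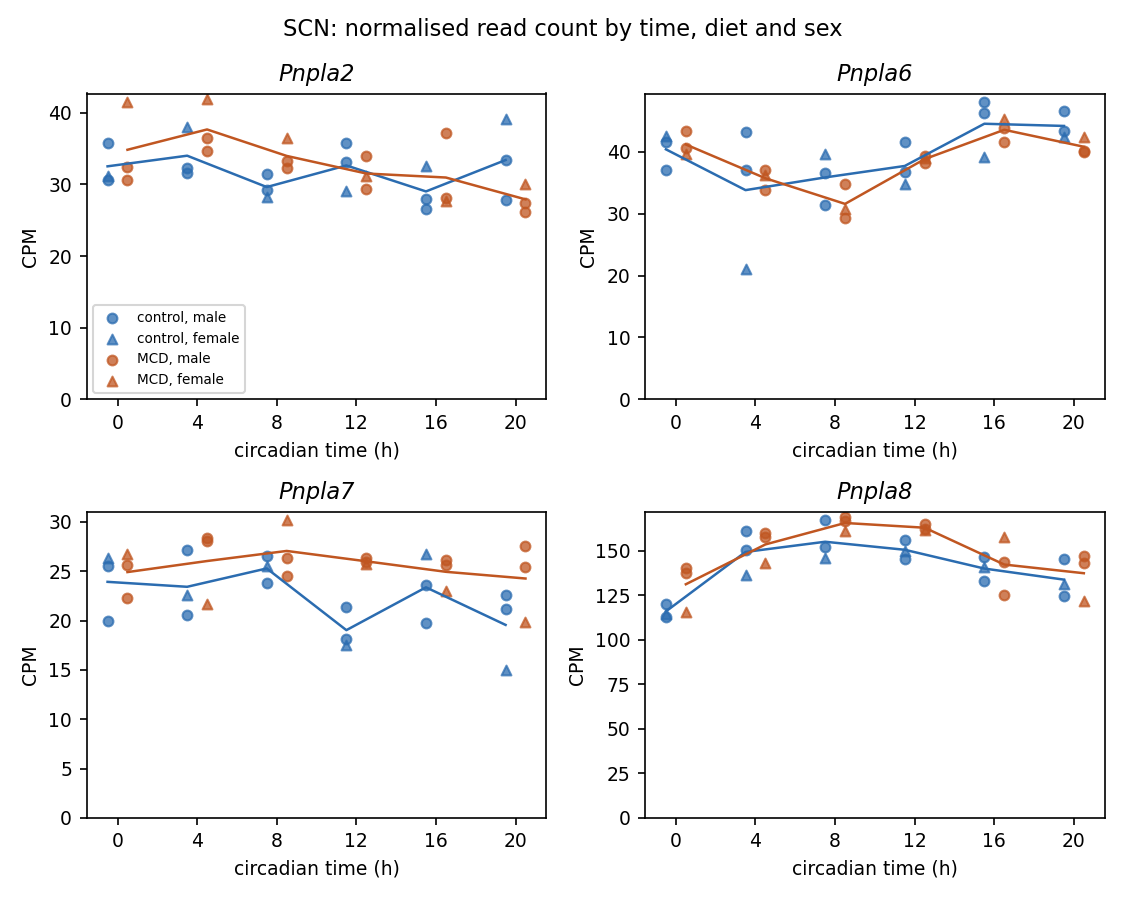
Normalised read count (CPM) of the 4 members in 36 SCN libraries against circadian time in hours, with symbols and lines as in the liver plot. With all times together, control and MCD points overlap for each gene. At single times they lie apart for Pnpla2 at CT08, Pnpla6 at CT20, and Pnpla7 and Pnpla8 at CT12. Pnpla8 is higher at CT04 to CT12 than at CT00 on both diets.

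At single times 0 of 4 members were called in the SCN (at most 0.0444% of all genes were, at CT04). Pnpla7 at CT12, with control at 21.4, 18.2 and 17.6 CPM and MCD at 26.3, 25.98 and 25.7 CPM, had an unadjusted p of 0.00635 (log2 difference 0.45 ± 0.15, adjusted p = 0.999), with groups that did not overlap. Pnpla8 at CT00 had an unadjusted p of 0.0469.

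Rhythms in the SCN were small. On control 2 of 4 members were called (15.1% of all genes): Pnpla8 with a range of 0.34 and a peak at 9.93 h (adjusted p = 0.00269, edgeR), and Pnpla6 with a range of 0.40 and a peak at 18.3 h (adjusted p = 0.0459). On MCD 1 of 4 was called (16.1% of all genes), Pnpla8 with a range of 0.34 and a peak at 9.37 h (adjusted p = 0.00226), and Pnpla6 had a range of 0.39, a peak at 18.8 h and adjusted p = 0.0534. Pnpla8 control libraries had 120.3, 112.8 and 114.7 CPM at CT00 and 167.3, 151.8 and 145.9 CPM at CT08, with no overlap. The Pnpla8 call on control was lost without replicate 1 (adjusted p = 0.0596) or 2 (0.0717), and that on MCD without replicate 2 (0.08) or 3 (0.0557). The Pnpla6 call on control was lost on leaving out most single libraries (highest adjusted p 0.129, without control CT08 b). Pnpla6 thus peaked near 18 to 19 h on control in both tissues, a description with no test.

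The rhythm difference between diets called 0 of 4 members in the SCN (0.0127% of all genes; 0 with an unadjusted p under 0.05), the sex term called 0 of 4 (9.89%; 0 unadjusted) and the sex by diet term 0 of 4 (0%; 0 unadjusted). limma-voom and DESeq2 called 0 in each of these 3 tests. No member was called for bins changing apart from its gene in the SCN (0 of 4 members, 0.0387% of 12916 genes, 0 with an unadjusted Simes p under 0.05 and 0 by the F test), although bins 032 and 057 of Pnpla7 had unadjusted p = 0.0162 and 0.0444. None of the genes tested in the 5 related lists was called for diet in the SCN, and no marker was.

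By likeness over 36 SCN libraries and 15275 genes, Pnpla8 was most like Tbc1d15 (r = 0.907), B230209E15Rik (0.901) and Ids (0.901), and Pnpla6 like Ildr1 (0.853), Grm4 (0.825) and Proser3 (0.798). Pnpla2 was most like Gm8797 (0.715), Tmem192 (0.685) and Psen2 (0.683), and Pnpla7 like Lrrc29 (0.643), Bst2 (0.629) and Gm50045 (0.628).

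Pnpla3 and Pnpla5 are not rows of the SCN gene table but have exon bins in the SCN files. There Pnpla3 held 403 bin counts over 18 control libraries and 384 over 18 MCD libraries, 0.518 ± 0.344 and 0.503 ± 0.42 CPM (SD). In liver it held 47 ± 37.5 CPM on control (n = 16) and 0.745 ± 0.5 on MCD (n = 18). These values are scaled to the total bin counts of each library, not by TMM and not across the tissues. Pnpla5 held 0 bin counts in all 36 SCN libraries, which allows up to 3 counts over them, for counting error only. A read that spans several bins may be counted in each, since the rule is not stated.

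Between the tissues, all 4 shared members were higher in liver than in SCN on control, where 90.4% of 14491 genes differed and 44.1% were higher in liver. On a scaling over all 72 libraries, Pnpla7 had 191.7 ± 42.6 CPM in liver and 18.8 ± 2.96 in SCN, a log2 difference of 3.43 ± 0.07 (SE). Pnpla2 differed by 1.74 ± 0.10 (90.97 ± 34.8 and 26.67 ± 2.72 CPM), Pnpla6 by 0.96 ± 0.06 and Pnpla8 by 0.79 ± 0.06, each with adjusted p of 1.18e-18 or less (edgeR). With library totals the differences were smaller: 2.72 for Pnpla7, 1.03 for Pnpla2, 0.25 for Pnpla6 (adjusted p = 0.000456) and 0.08 for Pnpla8 (adjusted p = 0.119).

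The diet change differed between the tissues for 3 of the 4 members, where 34.7% of genes differed. Liver minus SCN, it was 0.45 ± 0.12 for Pnpla2 (SE; adjusted p = 0.00313, edgeR), -0.28 ± 0.08 for Pnpla6 (adjusted p = 0.0053) and -0.43 ± 0.09 for Pnpla7 (adjusted p = 0.000165). For Pnpla8 it was -0.03 ± 0.07 (adjusted p = 0.797). Pnpla7 was lower on MCD in liver and, without passing the test, higher in SCN. With library totals the difference for Pnpla6 was -0.12 (adjusted p = 0.253). The call of Pnpla6 was also lost without replicate 1 (adjusted p = 0.0669) or 2 (0.057), and that of Pnpla2 without replicate 2 (0.0839).

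**Figure D5:**
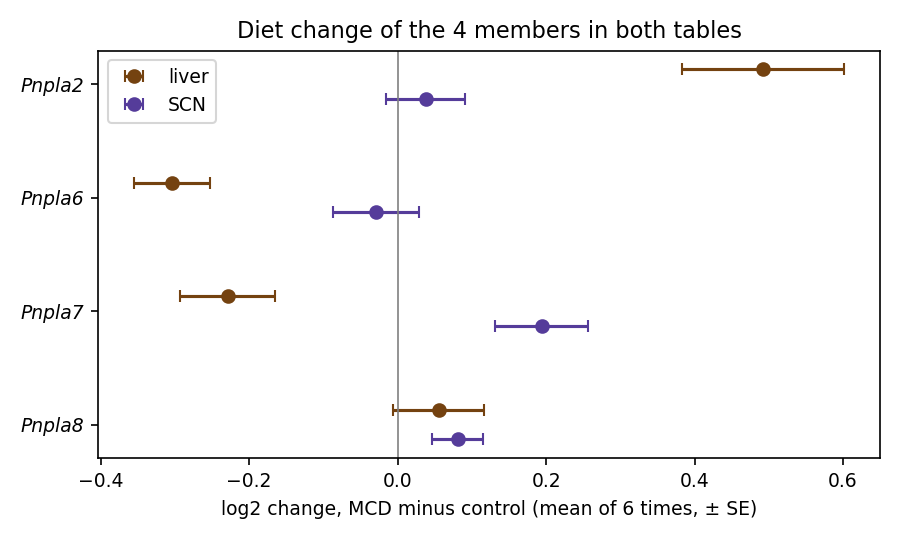
Log2 change, MCD minus control, mean of 6 times, in liver and SCN for the 4 members in both tables; bars are SE of the edgeR fit over 36 libraries per tissue. Pnpla2 is at 0.49 in liver and 0.04 in SCN, and Pnpla7 at -0.23 and 0.19.

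To compare levels between genes, CPM was divided by the merged exon length of GENCODE M21, which counts every annotated exon and so understates genes with long, rarely used ones. In control liver, with the sexes pooled, Pnpla3 was at 28.3 ± 24 CPM per kb (SD), Pnpla2 at 18.2 ± 7.02, Pnpla7 at 15.4 ± 3.46, Pnpla8 at 8.83 ± 0.825, Pnpla6 at 4.06 ± 0.74 and Pnpla5 at 2.57 ± 1.92. Neighbours from Pnpla3 to Pnpla7 lay within their spread, as did Pnpla6 and Pnpla5. By sex the means came in different orders: the 6 females had 51.1 ± 17.1 CPM per kb of Pnpla3, 16.1 ± 2.45 of Pnpla2 and 11.4 ± 2.24 of Pnpla7, and the 12 males 16.8 ± 18.2, 19.2 ± 8.38 and 17.4 ± 1.73. On MCD the order was Pnpla2 (26.1 ± 11), Pnpla7 (13.1 ± 2.95), Pnpla8 (9.24 ± 1.55), Pnpla6 (3.26 ± 0.343), Pnpla3 (0.455 ± 0.312) and Pnpla5 (0.0128 ± 0.0242). In control SCN Pnpla2 (10.6 ± 1.18) and Pnpla8 (9.93 ± 1.09) did not differ beyond their spread and stood above Pnpla6 (4.07 ± 0.654) and Pnpla7 (2.99 ± 0.474).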

How the data were processed

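RNA was taken from the left liver lobe and from laser-microdissected SCN, and polyadenylated RNA was sequenced with a stranded kit, per the labels' protocols. The submitters' processing notes name Trimmomatic, HISAT2, StringTie, DESeq2 and build GRCm39, with no roles or versions. The values used are whole-number read counts per gene and per exon bin, as deposited by the authors; how reads were counted is not stated there.

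Each tissue was fitted with 12 groups of diet and time plus sex in edgeR (quasi-likelihood F test, robust, TMM, filterByExpr with a minimum count of 10), with Benjamini-Hochberg adjustment over all genes and a threshold of 0.05. Rhythms were contrasts for a 24 h cosine over the group means, tissues were compared in a model of 72 libraries, and exon bins with diffSpliceDGE. CPM values are TMM-scaled, apart from those of mt-Nd6 (per total gene counts) and of exon bins (per total bin counts). Likeness used log2 CPM with a prior count of 2, and permutation tests drew 1e+05 permutations. limma-voom, DESeq2, library totals, no filter, a replicate block, fits within each mt-Nd6 kind and leaving out libraries were the alternatives.

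Over genes, the difference of male 1 minus male 2 on control was correlated with that on MCD at 5 times. The correlations were 0.021 to 0.27 in liver and -0.11 to 0.09 in SCN, weak for some pairs in each tissue, so no pairing was assumed. Exon-bin data of control CT00 replicates 1 and 2 in liver were not used. Every pair of same-group libraries differed by more than counting noise (chi-square per degree of freedom of at least 27.2 in liver and 24.1 in SCN). On simulated counts the liver diet test recovered 51.5%, 79.1% and 90.8% of log2 changes of 0.5, 1 and 2. The SCN diet test recovered 74.6%, 92.5% and 97%. The liver simulation changed 67, 67 and 66 of 20249 genes by these sizes, while 46.6% of genes were called in the data. An adjustment over all genes depends on that share, so these rates do not measure recovery in the real liver test. Genes named are the members, at most 4 genes of each list with the largest change among those called, and the 3 genes most like each member. Abhd5, Lipe and the uncalled lipogenic genes are named beyond that rule, after their values were seen. The members and lists were chosen with earlier results of these data known.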

Additional observations from a re-analysis of the deposited data

Results flagged for a closer look

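The liver diet change of Pnpla7 differed between the sexes: females minus males it was 0.4361 on the log2 scale (adjusted p = 0.0293, edgeR's sex by diet term, 12 male and 6 female libraries per diet). On control only the highest female reached the lowest male, and on MCD the sexes overlapped. The call of this difference was lost with library totals, within either mt-Nd6 kind and on leaving out some libraries, as given above.

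The diet change differed between liver and SCN for Pnpla2, by 0.4514 on the log2 scale (adjusted p = 0.00313, edgeR's tissue by diet term over 72 libraries), for Pnpla6, by -0.2773 (adjusted p = 0.0053), and for Pnpla7, by -0.4272 (adjusted p = 0.000165). With library totals the call of Pnpla6 was lost (-0.122, adjusted p = 0.253, edgeR), and those of Pnpla2 and Pnpla6 were lost on leaving out some replicate numbers. Groups of 3 libraries were too small for the check on single libraries far from their group.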

How the results depend on the processing

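Of the values followed under every alternative (calls of members, and mean diet changes whether called or not), 1706 kept their direction and their side of the threshold, 152 lost the call and 6 turned. Calls that edgeR did not make were, with library totals, Pnpla8 in liver (mean 0.308, CT00 0.567, CT04 0.428, CT16 0.374) and the Pnpla7 rhythm on control. With DESeq2 they were Pnpla6 at CT00 (-0.347), Pnpla8 at CT12 (-0.412) and the Pnpla5 rhythm on MCD. With library totals the liver diet change of Pnpla7 turned to 0.0302. That of Pnpla8 turned to -0.0459 without replicate 3 and to -0.0306 within the high mt-Nd6 kind. In the SCN Pnpla2 turned to -0.00329 and Pnpla6 to 0.0247 without replicate 1, and Pnpla6 to 0.00506 without control CT04 replicate 2. Leaving out the other replicate numbers moved Pnpla8 in liver up to 0.113, Pnpla2 in SCN up to 0.0767 and Pnpla6 in SCN down to -0.0834. None of the 6 that turned passed the test, and the cause was not tested.

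Members called in the liver diet test went from 5 to 3 within the low mt-Nd6 kind, a fit of 21 libraries with an additive model. The cause was not tested. limma-voom called 1 at CT00, where edgeR called 2, and 0 at CT08, where edgeR called 2. The sex by diet count in liver went from 1 to 0 with library totals and within either kind. DESeq2 called 2 members, not 0, for the liver rhythm difference, and DESeq2 and limma-voom called 2, not 1, for the SCN rhythm on MCD.

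With the replicate block, the rhythm on control was called for 1 member in liver, not 4 (Pnpla2 adjusted p = 0.078, Pnpla3 0.251, Pnpla5 0.357), and for 1 in SCN, not 2 (Pnpla6 0.383). The block fits also left out control CT08 a and b, which carry no replicate number, so only the female of that group remained. Effects of the block and of that loss cannot be told apart. The block changed no other member's call. It could not be fitted in the models over both tissues or for the sex difference, and sex terms could not be fitted without replicate 3.

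Leaving out libraries, members called ranged from 4 to 5 for the liver diet effect, 0 to 3 at CT00, 0 to 2 at CT08, 0 to 4 at CT12, 1 to 4 at CT16 and 1 to 3 at CT20. For the liver rhythm on control they ranged from 1 to 4, for its difference between diets from 0 to 1 and for sex by diet from 0 to 1. In the SCN they ranged from 0 to 2 for the rhythm on control, 0 to 2 on MCD and 0 to 1 for sex, and for the tissue by diet term from 1 to 3.

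With other tools, scalings or models, counts over all genes moved by more than 1.5 times in these cases. The liver diet count of 9426 was 4583 and 5096 within the low and high kind. Those fits had 21 and 15 libraries and an additive model, so the kind alone does not set them apart from the main fit. With library totals the counts at CT00, CT12, CT16 and CT20 went from 2550, 3081, 2532 and 2288 to 3971, 6475, 4162 and 3560, and SCN CT04 from 7 to 3. With DESeq2 the liver counts went from 263 to 651 at CT08, from 986 to 2061 for the rhythm difference and from 359 to 741 for sex by diet, which was 8 and 7 within the kinds. The SCN diet count of 10 was 48 with DESeq2, 19 with limma-voom and 4 with the block. In the SCN at single times DESeq2 called 29, 21, 5, 5, 5 and 23 genes from CT00 to CT20, where edgeR called 1, 7, 0, 0, 1 and 1, limma-voom 4 at CT00, 1 at CT12 and 2 at CT20, and the block 2, 4 and 2 at CT00, CT04 and CT08. The block gave 651 for the liver rhythm difference, 1248 in place of 2378 for the SCN rhythm on control and 1 in place of 2 for its difference between diets, where DESeq2 gave 7. DESeq2 called 1 gene for SCN sex by diet, where edgeR called 0. The F test on exon bins gave 680 in place of 404 in liver and 2 in place of 5 in SCN. Leaving out libraries, the lowest liver counts were 84, 330, 8, 54, 323 and 237 at the 6 times in order, 565 and 2448 for the rhythms on control and MCD, 4 for their difference, 664 for sex, 19 for sex by diet and 174 for exon bins, and CT08 reached 1212. In the SCN they were 811 and 775 for the rhythms, 20 to 2377 for sex, 0 to 17 for diet, 0 to 8 at CT04, 0 to 4 at CT00 and 0 to 6 at CT20, and for the tissue by diet term 2941. Precision is limited by 3 libraries per group, and for Pnpla5 on MCD by 35 counts in all.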
